A study of Mus musculus with 14 samples.

Results

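The BMP and TGF-beta pathway genes described here are 47 genes, chosen by symbol from the 23331 genes of a count table of mouse bone marrow stromal cells. They comprise 15 genes counted as ligands, 10 receptors, 8 SMADs, 4 ID genes, 6 antagonists and modulators, and 4 latent TGF-beta binding proteins (LTBPs). All 47 were found in the table, and 42 passed the filter on low counts and were tested. The other 5 were Bmp7, Gdf5, Gdf10, Bmpr1b and Nog.

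Femora and tibiae of adult mice (strain C57Bl/6) carrying the irtTA-GBD*-TAg transgene gave the cells, in which dexamethasone and doxycycline together induce the large T antigen, a viral protein that keeps cells dividing. All 14 libraries share this transgene, the earlier induction and 3 days of culture without both inducers before RNA was taken. Each clone had been tested for bone (osteogenic, O), fat (adipogenic, A) and cartilage (chondrogenic, C) differentiation, and the groups are tripotent OAC, bipotent OA and unipotent O and A, with 3 libraries each, and the pools OC3 and AC3, with 1 library each. Number 1 or 2 marks a library of 1 clone, with clones 1 and 2 of a group from different mice. Number 3 marks pools of several further clones of these animals. The labels do not say whether a number marks the same mouse in each group. The p-values therefore rest on the variation among clones and pools, from which variation among mice cannot be told apart.

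BMPs, growth and differentiation factors (GDFs), activins and TGF-betas are secreted dimers that bring together type I and type II receptor kinases at the cell surface. The type I receptor phosphorylates SMAD1, SMAD5 and SMAD9 downstream of BMPs, or SMAD2 and SMAD3 downstream of TGF-betas and activins. These then join SMAD4 and enter the nucleus, where ID genes are classical BMP targets. In bone marrow stroma BMPs are known for driving bone and cartilage formation, and TGF-betas for regulating matrix production and restraining terminal differentiation.

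Total counts ranged from 16888190 in OAC2 to 26076539 in OC3, and the 47 genes took 0.303% to 0.483% of the reads of a library. The stromal collagen genes and their companions (7 of 7 stromal markers in the table) summed to between 17944.5 and 84419.4 counts scaled to library size (CPM), lowest in the A group (17944.5 to 23154.4). Most of this sum was Col1a1 and Col1a2, which were lowest in A. Cxcl12, Pdgfra and Pdgfrb were instead higher in every A than in every O library, while Prrx1 and Lepr overlapped. Cxcl12, for example, was at 4833, 5131 and 2413 CPM in A1 to A3 and 643, 400 and 646 in O1 to O3. The niche marker Lepr reached at most 2.74 CPM and was at 0 in O1. Markers of blood (7 of 10 in the table) summed to 5.43 to 48.7 CPM, highest in O1, with the pan-leukocyte gene Ptprc at 0 in all but OC3 and O3, where it was at most 0.0379 CPM. The 6 endothelial markers summed to 0.643 to 6.56 CPM, the Schwann and neural markers to 1.77 to 30.2 and the skeletal muscle markers to 7.87 to 82.4. The 6 smooth muscle contractile markers summed to 3400.95 to 20430 CPM, highest in OA2. OA2 and O1 stood apart in the same way: genes of low GC content were low in both. The tenth of tested genes with the lowest GC content deviated by a median log2 of -2.45 in OA2 and -1.63 in O1 from the mean of the 14 libraries. The median of the same genes was also below the mean, though less so, in OAC2 (-0.796) and OAC1 (-0.427). It was above the mean in AC3 (1.00), OC3 (0.945), O2 (0.839), OAC3 (0.825), O3 (0.64) and OA3 (0.549). In OA1, A1, A2 and A3 it was 0.0947 to 0.283.

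The 10 members of lowest GC content deviated by a median log2 of -1.95 in OA2 and -1.63 in O1. The type I receptors Bmpr1a and Tgfbr1 and the type II receptor Bmpr2 are among them, with 41.3%, 41.0% and 41.0% GC. In OA2 they were at 5.31, 1.13 and 5.95 CPM, against group means of 69.6, 24.9 and 40.0 CPM in the A libraries. O1 was the lowest of the 14 libraries for 13 of the 42 tested members. A fit with an offset for GC content and a fit without OA2 and O1 were made in every comparison, by both tools.

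**Figure D1:**
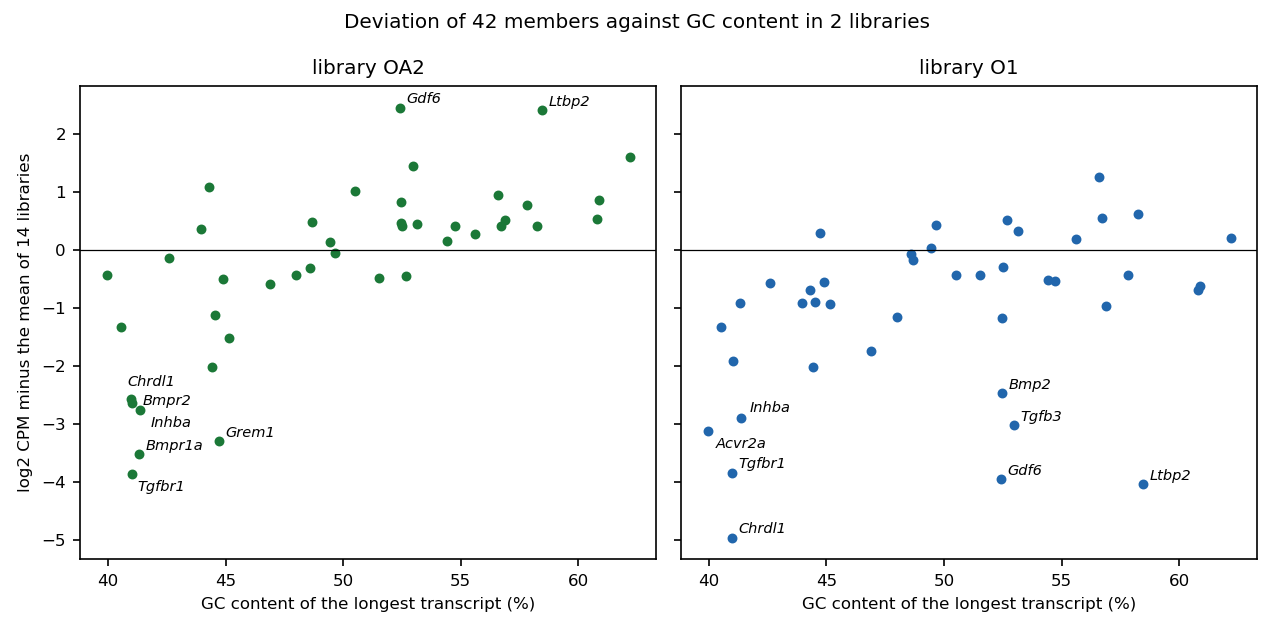
Each point is 1 of the 42 tested members. The x axis is the GC content of its longest transcript in percent and the y axis its log2 CPM minus the mean of the 14 libraries, for OA2 (left) and O1 (right). Tgfbr1 lies at -3.87 in OA2 and -3.84 in O1, and Bmpr1a at -3.53 in OA2.

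Levels can be compared between genes only per length, and this was done as CPM per kilobase of exonic length (CPM per kb), with the SD over the 14 libraries. The highest member was Tgfb3, a TGF-beta ligand, at 107 ± 55.5 CPM per kb. Id3 (105 ± 19.1), the metalloprotease gene Bmp1 (96.6 ± 26.8) and Ltbp3 (90.5 ± 37.7) followed, and these 4 did not differ beyond their spread. Ltbp1 (52.5 ± 14.6), Tgfb1 (39.8 ± 15.3), Bmp4 (35.5 ± 14.4), Tgfbr2 (30.2 ± 9.85) and Fst (30.2 ± 15.1) formed a lower range in which neighbours again overlapped.

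Among the receptors the order per kb was Tgfbr2, Tgfbr3 (21.6 ± 11.2), Acvr1 (18.4 ± 3.30), Bmpr2 (13.6 ± 7.97), Bmpr1a (11.8 ± 5.20), Tgfbr1 (3.80 ± 1.97), Acvr2a (1.87 ± 2.51), Acvrl1 (1.08 ± 0.790) and Acvr2b (0.540 ± 0.271 CPM per kb). The type II and co-receptors of TGF-beta thus led the receptors per length, although Tgfbr3 and Acvr1 lay within their spread. Among the SMADs, Smad4 and Smad3 (both 21.3 CPM per kb, SD 3.41 and 4.26) were highest and Smad9 (2.63 ± 0.819) was lowest. As a role the SMADs also varied least. The highest library exceeded the lowest by 1.61-fold for Smad4 and by at most 3.47-fold, for Smad9, whereas the same ratio was 253-fold for Grem1, 102-fold for Gdf6 and 89.5-fold for Ltbp2.

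**Figure D2:**
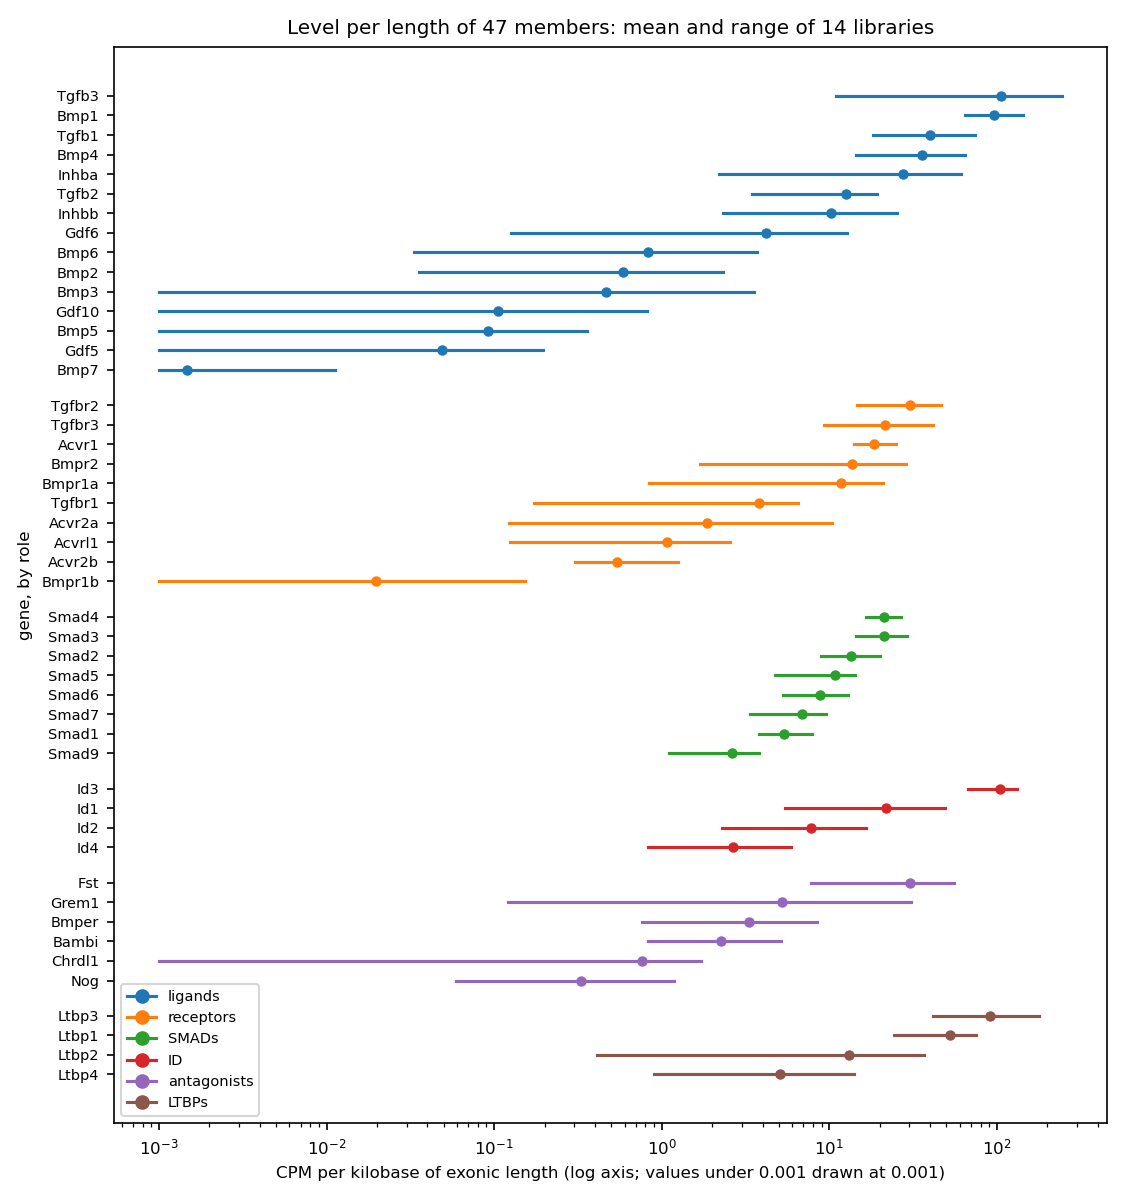
Points are the means and lines the range of 14 libraries for all 47 members, in CPM per kb of exonic length on a log axis, ordered by level within each role. Tgfb3, Bmp1, Id3 and Ltbp3 lie at 90.5 to 107, and Bmp7, Bmpr1b, Gdf5, Bmp5 and Gdf10 are lowest.

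edgeR's quasi-likelihood test with Benjamini-Hochberg adjustment over all 13896 tested genes called no member at a false discovery rate (FDR) of 0.05 in any of the 10 comparisons made. In the test for any difference among OAC, OA, O and A, 9 members (21.4%) had an unadjusted edgeR p under 0.05. Of all tested genes 5.97% did. DESeq2, the second tool, called 0 members against 2.09% of all genes. The 9 were Tgfbr3, Inhbb, Bmp1, Bambi, Ltbp1, Grem1, Tgfb1, Gdf6 and Id4, with edgeR FDR from 0.609 to 0.831. In single comparisons DESeq2 called 6 members in all: Gdf6, Inhbb, Tgfb1, Tgfbr3, Smad7 and Grem1. In counts simulated for O vs A with 13896 genes, 64 of the 197 DESeq2 calls and 3 of the 85 edgeR calls fell on unchanged genes, so DESeq2 made more false calls there than its threshold allows. At a true change of 4-fold edgeR recovered 20 and DESeq2 34 of 50 genes. These counts were drawn with 1 mean per unchanged gene for all groups and the spread that edgeR estimated, without a GC trend. In the real O vs A data edgeR made 1 and DESeq2 420 calls, so the simulated shares need not hold for them. Comparisons between groups share libraries (O vs A and OA vs A share the A libraries, for example), so calls of 1 gene in several of them are not independent.

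**Figure D3:**
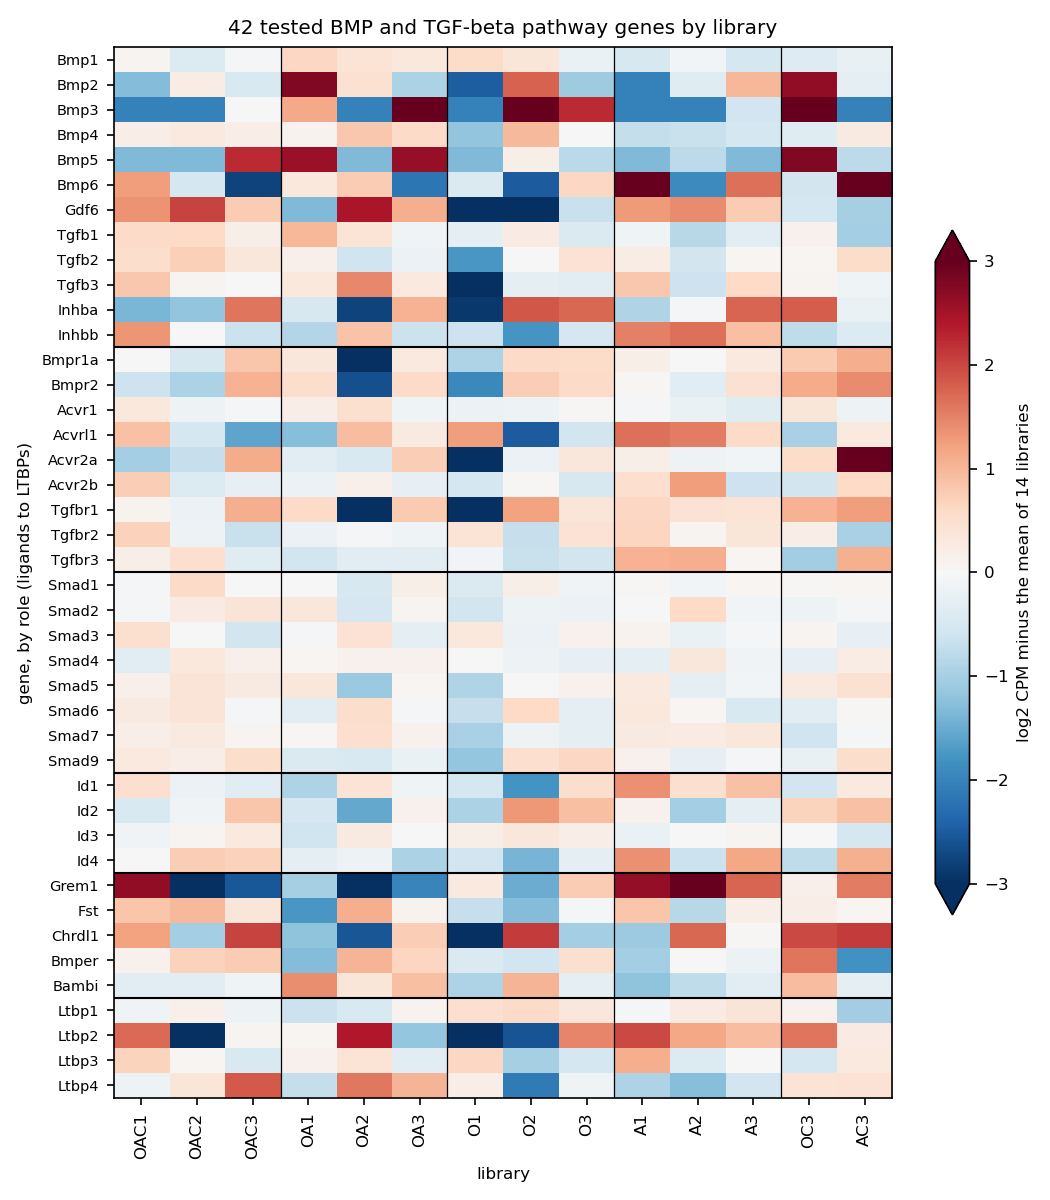
Rows are the 42 tested members by role and columns the 14 libraries, with groups separated by vertical lines. Colour is log2 CPM minus the mean of the 14 libraries, from -3 (blue) to 3 (red). The SMAD rows are pale throughout, while Grem1, Gdf6, Bmp3, Bmp5, Inhba and Ltbp2 differ strongly between libraries of the same group.

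Promoter sequence was available from RefSeq (build GRCm38.p6) for 30 of the 47 members, and for Inhbb, Grem1 and Tgfb1 among the 6 that DESeq2 called. These 3 are shown because they are the called members with an entry, as the 250 bases before the annotated start site, 5′ to 3′ on the gene's strand. Capitals mark matches to CAGAC or its complement GTCTG, the extended SMAD box, and to GGCGCC, a GC-rich site known from BMP-responsive ID promoters and identical on both strands. The intervals are chr1:119422249-119422498 on the minus strand for Inhbb, chr2:113758649-113758898 on the minus strand for Grem1 and chr7:25686752-25687001 on the plus strand for Tgfb1.
Inhbb: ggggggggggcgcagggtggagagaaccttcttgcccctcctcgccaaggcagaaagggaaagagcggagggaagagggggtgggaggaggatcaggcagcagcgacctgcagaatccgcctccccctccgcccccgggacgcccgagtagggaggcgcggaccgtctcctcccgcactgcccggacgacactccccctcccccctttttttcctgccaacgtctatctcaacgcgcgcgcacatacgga
Grem1: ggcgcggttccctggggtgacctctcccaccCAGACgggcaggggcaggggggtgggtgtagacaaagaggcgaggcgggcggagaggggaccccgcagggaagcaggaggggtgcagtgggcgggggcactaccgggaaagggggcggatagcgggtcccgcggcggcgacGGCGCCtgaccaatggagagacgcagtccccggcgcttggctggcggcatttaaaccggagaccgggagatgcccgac
Tgfb1: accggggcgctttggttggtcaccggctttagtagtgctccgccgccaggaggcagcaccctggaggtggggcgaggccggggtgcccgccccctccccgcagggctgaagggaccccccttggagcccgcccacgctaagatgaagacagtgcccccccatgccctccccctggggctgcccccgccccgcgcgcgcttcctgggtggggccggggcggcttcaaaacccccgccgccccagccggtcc
The Grem1 window held CAGAC at -219 and GGCGCC at -78 from the start site, and the Inhbb and Tgfb1 windows held neither. Of 32851 mouse promoter windows of 250 bases, 42.2% held CAGAC or GTCTG and 9.59% held GGCGCC. Of the 38 start sites of the members, 17 held the first motif and 10 the second. The motifs do not overlap each other in the Grem1 window, and a match is a description of letters only. The 3 windows are 68%, 72% and 75.2% GC.

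Among the ligands, Gdf6 was the one that DESeq2 called in most comparisons. GDF6 is a BMP-family ligand known for its role in joint and skull formation. The O libraries 1 to 3 had 0.446, 0.609 and 5.10 CPM, and the A libraries 19.99, 21.9 and 13.9 CPM. The O libraries were the lower in each case, without overlap, and the O1 and O2 values rest on 7 and 15 reads (exact 95% Poisson intervals 0.179 to 0.918 and 0.341 to 1.00 CPM, counting error only). The OAC libraries were at 20.9, 33.9 and 13.9 CPM, also above every O library, whereas OA1, OA2 and OA3 spread over 3.21, 45.3 and 17.4 CPM and overlapped with O. OC3 was at 5.65 and AC3 at 4.05 CPM. In bulk libraries, here and below, fewer cells expressing a gene and less RNA per cell cannot be told apart.

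In O vs A the log2 fold change of Gdf6 was -3.16 ± 1.05 (SE), with an edgeR FDR of 0.359 and a DESeq2 adjusted p of 0.0325. In OAC vs O it was 3.46 ± 1.06, with an edgeR FDR of 0.739 and a DESeq2 adjusted p of 0.0341. Both DESeq2 calls were lost without O1 (adjusted p 0.152 and 0.193) and without O2 (0.163 and 0.134), and both were made with the GC offset (0.0201 and 0.0228). The O vs A call was also lost without A1, A2 or A3 (0.142, 0.18 and 0.0697), and the OAC vs O call without any single OAC library (0.0579 to 0.303). Without O3, whose 5.10 CPM is the highest of its group, the edgeR log2 fold changes were -5.11 and 5.41. In OA vs O DESeq2 did not call Gdf6 with all libraries or without O1, O2 or OA2. It did so without O3 (5.36, adjusted p 4.66e-06), OA1 (3.94, 0.0144) or OA3 (3.58, 0.0456).

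Inhbb encodes the beta-B subunit of activin and inhibin. It was at 97.6, 107 and 63.2 CPM in A1 to A3 and at 22.1, 9.86 and 24.0 CPM in O1 to O3. The groups did not overlap. OA1 (18.4) and OA3 (21.6 CPM) were as low as the O libraries, OA2 was at 61.4 CPM, and the OAC libraries ran from 21.7 to 85.7 CPM, so the bipotent and tripotent groups were mixed. O vs A gave a log2 fold change of -2.26 ± 0.62, an edgeR FDR of 0.259 and a DESeq2 adjusted p of 0.0186, which was 0.116 with A1 left out, 0.157 with A2 left out and 0.134 with O2 left out. With the GC offset it was 0.000496. OA vs A was -1.40 ± 0.61 (edgeR FDR 0.94, DESeq2 adjusted p 0.533), and DESeq2 called it with the GC offset (-1.79, 0.0306), without OA2 (-2.15, 0.0412) and without OA2 and O1 (-2.16, 0.0212). Inhba, the beta-A subunit, did not follow it: its range within each of the 4 groups was wide, for example 4.33 to 121 CPM in O, and no pair of groups was free of overlap.

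Tgfb1 was at 142, 143 and 108 CPM in the OAC libraries, 190, 125 and 88.2 in OA, 77.2, 113 and 69.8 in O, 86.7, 53.2 and 76.2 in A, 104 in OC3 and 46.9 in AC3. All OAC and all OA libraries lay above all A libraries, while O and A overlapped. In the additive model of 3 potentials, which uses all 14 libraries, osteogenic potential went with a log2 difference of 1.04 ± 0.26 (10 libraries at a mean of 116 ± 35.9 CPM, against 65.8 ± 18.8 in 4). Its edgeR FDR was 0.352 and its DESeq2 adjusted p 0.0116. An offset for GC content brought the DESeq2 value to 0.87 (adjusted p 0.143), and the call was also lost without OA1 (0.0743), A2 (0.0858) or AC3 (0.197). Tgfb1 is 52.5% GC.

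Tgfb3 ranged from 37.2 CPM in O1 to 827 CPM in OA2, with O2 and O3 at 250 and 243 CPM. Its log2 deviation from the mean of the 14 libraries was -3.03 in O1 and 1.44 in OA2. Tgfb3 is 53.0% GC, and the cause of these deviations was not tested. All OA (381, 827 and 372) and all OAC libraries (531, 320 and 300 CPM) were above the O libraries, but A (533, 196 and 457) overlapped with each group. OA vs O was 1.58 ± 0.66 on the log2 scale with an edgeR FDR of 0.902. Tgfb2 was between 16.8 CPM in O1 and 93.1 in OAC2, and the OAC libraries (71.7 to 93.1) lay above the OA (37.6 to 63.0) and A libraries (39.0 to 66.1).

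Bmp1, which in spite of its name encodes a protease that processes procollagen and cleaves the BMP antagonist chordin, was at 597, 512 and 480 CPM in OA, 569, 502 and 338 in O, 414, 292 and 374 in OAC, and 278, 365 and 269 in A. OC3 was at 299 and AC3 at 333 CPM. The OA libraries were above all A and all OAC libraries. OA vs A was 0.80 ± 0.24 on the log2 scale with an edgeR FDR of 0.676 and a DESeq2 adjusted p of 0.109.

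Bmp4, an osteogenic and adipogenic-commitment ligand and the most abundant BMP proper per length, was at 44.5, 45.7 and 50.9 CPM in the 3 A libraries. Levels were 84.2, 88.8 and 83.6 CPM in OAC, 78.8, 128 and 108 in OA, and 32.3, 143 and 73.4 in O. OAC and OA thus lay wholly above A, and the lowest value of all was O1. OA vs A was 1.16 ± 0.42 on the log2 scale (edgeR FDR 0.795, DESeq2 adjusted p 0.258). O vs A was 0.82 ± 0.42, not called by DESeq2 with all libraries (adjusted p 0.401) but called without O1 (1.21, 0.0193) and without OA2 and O1 (1.18, 0.00668).

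The remaining ligands were scarce. Bmp2 was at 0.127 to 8.22 CPM, with OA1 (8.22), OC3 (7.54) and O2 (3.98) highest. Bmp6 was at 0.118 to 13.3 CPM, highest in A1 (13.3) and AC3 (11.2) but at 0.284 CPM in A2. Bmp3, an atypical BMP that opposes osteogenic BMPs, was at 11.0 CPM in OC3, 3.08 in O2, 3.41 in OA3 and 1.61 in O3, and had no read in 7 libraries, OAC1, OAC2, OA2, O1, A1, A2 and AC3, which allows up to 0.119 to 0.191 CPM. DESeq2 called Bmp3 in O vs A once OA2 and O1 were left out (5.49, adjusted p 0.046; 0.379 with them). Bmp5 reached 1.44 CPM in OC3 and 1.26 in OA3. Of the untested ligands, Gdf10 was at 2.05 CPM in OAC3 and 3.05 in OA3, both pools, and at most 0.198 in the other 12 libraries. Gdf5 reached 0.452 CPM in A1, and Bmp7 had 1 read each in OA3 and O3 and none elsewhere.

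Among the receptors, Tgfbr3 stood out. It encodes betaglycan, a co-receptor that presents TGF-beta2 to the type II receptor and also binds inhibin. It was at 260, 271 and 132 CPM in A1 to A3 and 266 CPM in AC3, against 120, 79.1 and 86.0 in O, 85.9, 102 and 99.2 in OA, and 60.95 in OC3. The A libraries were above all O and OA libraries, and the OAC libraries (143, 178 and 98.9 CPM) overlapped with both. O vs A was -1.22 ± 0.31 on the log2 scale (edgeR FDR 0.236, DESeq2 adjusted p 0.0348) and OA vs A was -1.21 ± 0.31 (0.649 and 0.0662).

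The DESeq2 call of Tgfbr3 in O vs A was lost without O2 (adjusted p 0.189), O3 (0.13), A1 (0.235) or A2 (0.271). It was made with the GC offset (-1.19, 0.00889) and without OA2 and O1 (-1.44, 0.0077). In OA vs A, DESeq2 called Tgfbr3 with the GC offset (-1.25, adjusted p 0.0148) and without A3 (-1.45, 0.00302). Osteogenic potential went with -1.05 ± 0.27 (edgeR FDR 0.362, DESeq2 adjusted p 0.0558), which DESeq2 called with the GC offset (0.0142), without OA2 and O1 (0.0314) and without A3, O1, OAC2 or OC3 (0.00993 to 0.0192). Tgfbr3 is 48.6% GC.

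Acvr1, the type I receptor also called ALK2, whose activating mutations cause heterotopic bone, was the steadiest receptor. It was at 109, 79.3 and 86.0 CPM in OAC, 101, 122 and 80.3 in OA, 78.0, 79.1 and 90.4 in O, 85.7, 76.6 and 67.8 in A, 112 in OC3 and 79.0 in AC3. Every pair of groups overlapped, and the overall edgeR FDR was 1.00. Tgfbr2, the type II TGF-beta receptor, was at 373, 209 and 145 CPM in OAC, 206, 223 and 212 in OA, 309, 143 and 312 in O, 362, 245 and 296 in A, 266 in OC3 and 119 in AC3. Its A libraries lay above its OA libraries, by -0.50 on the log2 scale for OA vs A. Acvr2a, an activin and BMP type II receptor, was at 58.7 CPM in the AC3 pool and at 0.700 to 14.9 CPM in the other 13 libraries. It is the tested member of lowest GC content (39.9%), and the 10 members of lowest GC content had a median log2 deviation of 1.08 in AC3. Bmpr1b, untested, had 24 reads in OC3, 13 in A3 and at most 3 in any other library.

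Of the SMADs, the inhibitory Smad7, which blocks type I receptors and is induced by TGF-beta, separated libraries by adipogenic potential. It was at 32.5, 34.3 and 30.1 CPM in OAC, 29.3, 40.7 and 31.0 in OA, 34.1, 33.7 and 36.0 in A and 27.4 in AC3. It was at 14.5, 25.7 and 23.3 CPM in O and 18.8 in OC3. The 10 libraries with adipogenic potential were above the other 4 without overlap. A complete separation in either direction was seen in 1.71% of all tested genes and in no second member. The additive model gave 0.72 ± 0.18 on the log2 scale (32.9 ± 3.79 against 20.6 ± 4.99 CPM, n = 10 and 4), an edgeR FDR of 0.297 and a DESeq2 adjusted p of 0.0101.

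With the GC offset the DESeq2 value for Smad7 was 0.39 with an adjusted p of 0.58. The call was also lost without OA2 (0.0691) or OC3 (0.128), and was made without OA2 and O1 together (0.54, 0.038). In O vs A, Smad7 was -0.71 ± 0.24 (edgeR FDR 0.374, DESeq2 adjusted p 0.124), called by DESeq2 without OA2 and O1 (-0.51, 0.0463). Smad7 is 56.9% GC. Smad6, the other inhibitory SMAD, was at 16.6 to 40.3 CPM with O1 lowest and O2 highest, both in the O group.

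Smad2, which carries TGF-beta and activin signals, was at 31.8, 42.3 and 41.6 CPM in O, 46.6, 71.1 and 43.9 in A, 45.7, 55.7 and 61.3 in OAC, 58.8, 32.9 and 49.3 in OA, 41.9 in OC3 and 45.8 in AC3. All A and OAC libraries were above all O libraries, although A3 (43.9) and O2 (42.3 CPM) were close. O vs A was -0.48 ± 0.27 on the log2 scale with an edgeR FDR of 0.644. Smad4, the shared partner, was at 79.1, 70.2 and 65.9 CPM in O, 80.6, 85.7 and 85.1 in OA, 61.3, 97.9 and 86.7 in OAC, 63.8, 98.9 and 72.6 in A, 65.4 in OC3 and 91.6 in AC3. OA lay above O but only by 0.22 on the log2 scale. Smad9, the least abundant BMP SMAD, was at 9.87, 9.81 and 11.6 CPM in OA, below OAC (16.4, 15.3 and 19.2 CPM) without overlap. In the test over 4 groups DESeq2 called it without O1 (adjusted p 0.00125) and without OA2 and O1 (0.0431).

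The ID genes encode inhibitors of basic helix-loop-helix factors. Id1 was at 57.2, 30.7 and 40.5 CPM in A, 11.52, 29.1 and 20.2 in OA, 15.2, 6.29 and 32.0 in O, 31.4, 19.3 and 17.5 in OAC, 14.7 in OC3 and 26.9 in AC3. The A libraries were above the OA libraries, and O3 overlapped with A. O vs A was -1.26 ± 0.55 on the log2 scale (edgeR FDR 0.49), and DESeq2 called Id1 there without O3 (-1.92, adjusted p 0.0188). Id4 was at 9.79, 2.35 and 8.55 CPM in A, 2.48, 1.38 and 3.11 in O, 3.06, 3.38 and 1.88 in OA, 3.71, 6.35 and 6.12 in OAC, 2.16 in OC3 and 7.98 in AC3. The low A2 made A overlap with O and OA, and without A2 DESeq2 called Id4 in O vs A (-1.92, adjusted p 0.00614).

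Id3, by far the most abundant ID gene per length, was between 121 CPM in OA1 and 235 in O2. It was 209, 235 and 213 CPM in O and 161, 182 and 195 in A, so O lay above A, by 0.29 on the log2 scale, opposite to Id1 and Id4. Id2 was at 2.90 to 21.1 CPM. No ID gene passed either test in O vs A with all libraries.

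Of the antagonists, Grem1 varied most. Gremlin 1 binds BMP2, BMP4 and BMP7 and is known as a marker of skeletal progenitors. It was at 45.3, 127 and 24.3 CPM in A and 21.0 in AC3, and at 3.56, 0.643 and 1.75 CPM in OA. The O libraries held 8.72, 2.48 and 12.3 CPM and OC3 7.998 CPM. OAC1 was at 46.0 CPM but OAC2 and OAC3 at 0.503 and 1.15 CPM. The A libraries lay above all O and OA libraries, and the OAC group was split between the highest and the lowest values.

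OA vs A was -5.04 ± 1.61 on the log2 scale for Grem1 (edgeR FDR 0.704, DESeq2 adjusted p 0.0103). The DESeq2 call was lost without OA2 (0.0597), without A2 (0.218) and without OA2 and O1 (0.146), and DESeq2 gave no adjusted p without A1 or without A3. Osteogenic potential in the additive model went with -3.70 ± 1.51 (edgeR FDR 0.575, DESeq2 adjusted p 0.0351), lost with the GC offset (0.108), without OA1, OA2 or OA3 (0.113, 0.189 and 0.125) and without OA2 and O1 (0.226), with no adjusted p given without A1, A2 or A3. OAC vs A was not called, but without OAC1 DESeq2 gave -6.25 with an adjusted p of 5.5e-08. Grem1 is 44.7% GC.

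Bambi encodes a pseudoreceptor without a kinase that dampens TGF-beta and BMP signals and is itself induced by them. It was at 25.9, 12.5 and 18.4 CPM in OA, 18.5 in OC3, 5.09, 19.8 and 7.99 in O, 7.86, 7.86 and 8.89 in OAC, 4.15, 5.75 and 7.75 in A and 7.94 in AC3. The OA libraries were above all OAC and all A libraries. OA vs A was 1.69 ± 0.49 on the log2 scale (edgeR FDR 0.676, DESeq2 adjusted p 0.0551). DESeq2 called it with the GC offset (1.94, 0.000371) and without OA2 and O1 (1.92, 0.00417). OAC vs OA was -1.21 ± 0.49, with an edgeR FDR of 1.00.

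Fst, whose product follistatin traps activins, was at 124, 138 and 91.1 CPM in OAC, 21.0, 149 and 75.6 in OA, 43.2, 28.6 and 68.1 in O, 125, 39.2 and 79.1 in A, 80.7 in OC3 and 73.4 in AC3. OAC lay above O. Bmper was at 11.4, 16.98 and 17.8 CPM in OAC, above 5.14, 10.3 and 9.24 in A. Chrdl1 ranged from no read in O1 (up to 0.191 CPM) to 11.6 CPM in O2. Nog, the BMP trap noggin, was untested, with 3 to 61 reads a library and its highest level, 2.29 CPM, in O3.

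**Figure D4:**
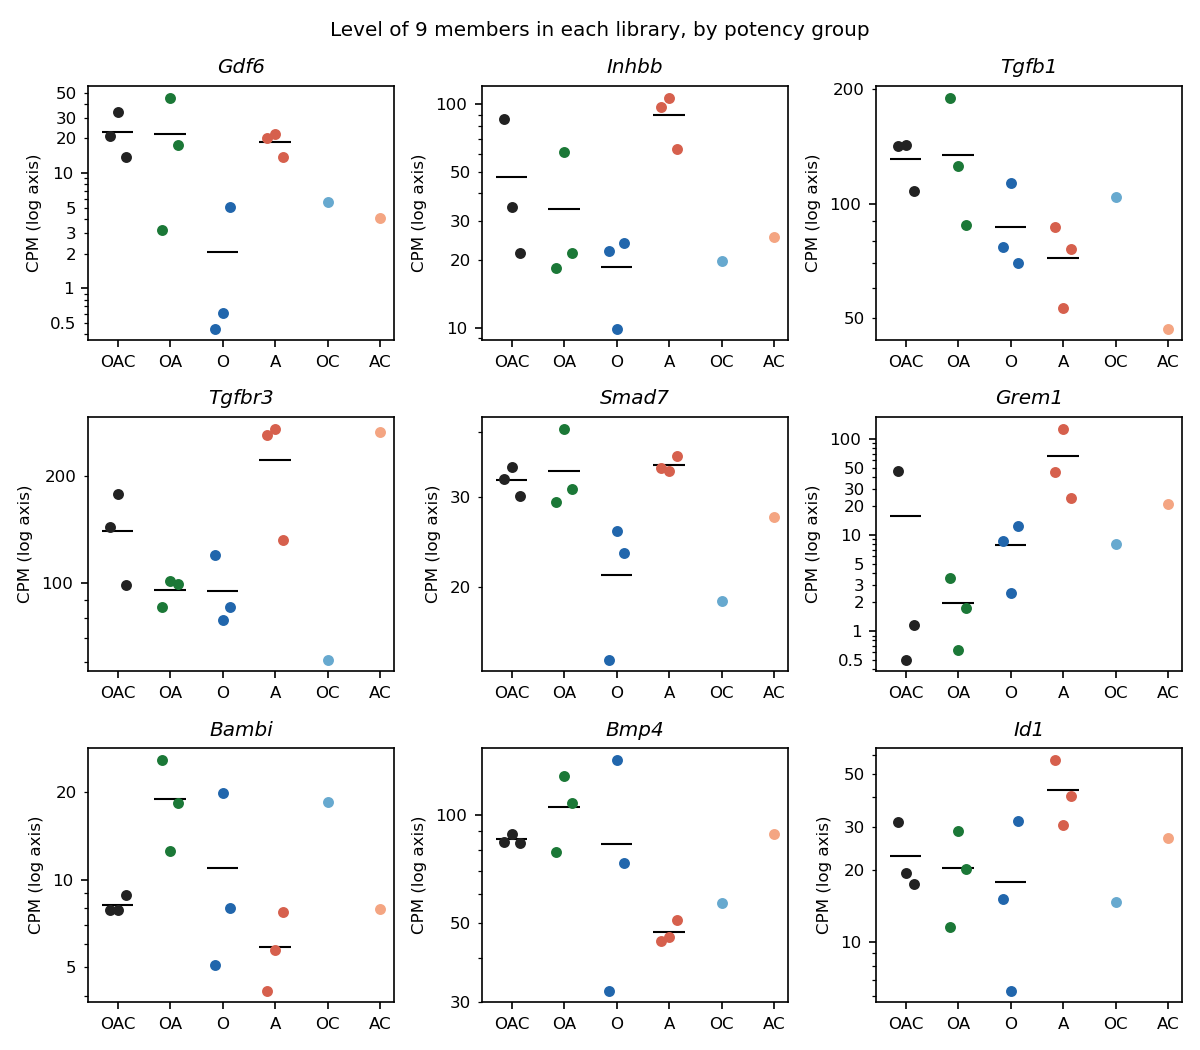
Points are single libraries and bars the means of the groups of 3, in CPM on a log axis, for Gdf6, Inhbb, Tgfb1, Tgfbr3, Smad7, Grem1, Bambi, Bmp4 and Id1. Gdf6 lies at 0.446 to 5.10 in O and 13.9 to 21.9 in A, and Smad7 at 14.5 to 25.7 in O and 33.7 to 36.0 in A.

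Of the LTBPs, LTBP1, LTBP3 and LTBP4 hold latent TGF-beta in the matrix. Ltbp1 was at 764, 801 and 682 CPM in O, 342, 394 and 574 in OA, 503, 594 and 487 in OAC, 528, 633 and 705 in A, 588 in OC3 and 261 in AC3. The O libraries were above all OA and all OAC libraries. OA vs O was -0.78 ± 0.23 on the log2 scale (edgeR FDR 0.851, DESeq2 adjusted p 0.10), and DESeq2 called it without OA3 (-1.04, 0.000404).

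Ltbp4 was at 23.1, 33.1 and 91.3 CPM in OAC, 15.4, 77.3 and 52.2 in OA, 29.5, 5.84 and 23.4 in O, 13.5, 10.5 and 17.1 in A, 34.3 in OC3 and 34.5 in AC3. OAC was above A without overlap, by 1.84 ± 0.73 on the log2 scale (edgeR FDR 1.00, DESeq2 adjusted p 0.458). Ltbp3 was at 696, 454 and 320 CPM in OAC, 474, 578 and 343 in OA, 671, 217 and 303 in O, 932, 329 and 433 in A, 304 in OC3 and 538 in AC3, and every pair of groups overlapped. Ltbp2 spread from 3.37 CPM in O1 to 302 in OA2, with 3.84 CPM in OAC2 and 186 in OAC1. Without O3, which was at 157 CPM, DESeq2 called Ltbp2 in O vs A (-4.54, adjusted p 0.00763) and in OA vs O (4.33, 0.0393).

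The counts over the members, set beside all 13896 tested genes, are as follows, with the share of the 42 tested members in brackets. The shares carry no test. In O vs A, which asks what separates the unipotent groups, edgeR called no member and 0.0072% of all genes, and DESeq2 called 3 of 42 members (Gdf6, Inhbb and Tgfbr3, all lower in O) where it called 3.02% of all genes. The groups did not overlap for 7 members (16.7%), against 15.6% of all genes, and 8 (19%) had an unadjusted edgeR p under 0.05, against 9.89%. Of the 7, only Id3 was higher in O, and Gdf6, Inhbb, Tgfbr3, Smad2, Smad7 and Grem1 were lower. The median log2 fold change was -0.12 over the members and 0.03 over all genes.

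In OA vs A, edgeR called no member and 0.0072% of all genes, and DESeq2 called 1 member, Grem1, against 0.936% of all genes. The groups were free of overlap for 9 members (21.4%), against 11% of all genes. Bmp1, Bmp4, Tgfb1 and Bambi were higher in OA, and Inhbb, Tgfbr2, Tgfbr3, Id1 and Grem1 lower. An unadjusted edgeR p under 0.05 was reached by 11 members (26.2%), against 5.27%, and the medians were -0.10 and -0.03. In OA vs O, DESeq2 called none of the members and 0.302% of all genes. Tgfb3, Smad4 and Smad7 were higher and Ltbp1 lower without overlap, 4 members (9.52%) against 8.2%. As many, 4 members (9.52%), had an unadjusted edgeR p under 0.05, against 5.43%, and the medians were 0.21 and -0.08.

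In OAC vs O, DESeq2 called Gdf6 alone, against 0.727% of all genes. Gdf6, Tgfb3, Smad2, Smad5, Smad7, Id4 and Fst were higher and Ltbp1 was lower without overlap, 8 members (19%) against 11.5% of all genes. The medians were 0.33 and -0.06, and 3 members (7.14%) had an unadjusted edgeR p under 0.05, against 6.02%. In OAC vs A, edgeR called no member and 0.0072% of all genes, and DESeq2 no member and 0.41%. Bmp4, Tgfb1, Tgfb2, Smad9, Bmper, Bambi and Ltbp4 were higher in OAC without overlap and none was lower, 7 members (16.7%) against 10.8%. Only 2 members (4.76%) had an unadjusted edgeR p under 0.05, against 3.58%, and the medians were 0.07 and -0.03.

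In OAC vs OA, DESeq2 called no member and 0% of all genes. Tgfb2, Smad9 and Id4 were higher and Bmp1 and Bambi lower in OAC without overlap, 5 members (11.9%) against 4.93%. An unadjusted edgeR p under 0.05 was found for 2 members (4.76%), against 1.17%. The medians were 0.14 and 0.00. By the additive model, DESeq2 called Tgfb1 and Grem1 for osteogenic potential (1.27% of all genes) and Smad7 and Gdf6 for adipogenic potential (1.45% of all genes). For Gdf6 the adipogenic value was 2.91 ± 0.90 (edgeR FDR 0.334, DESeq2 adjusted p 0.0237), lost with the GC offset (0.0506), without OA2 (0.177), OAC2 (0.0655) or O2 (0.0948), and without OA2 and O1 (0.132). For chondrogenic potential DESeq2 called no member and 0.0216% of all genes. Libraries with and without osteogenic potential were free of overlap for no member and 1.06% of all genes, and those with and without chondrogenic potential for no member and 0.166%. For osteogenic, adipogenic and chondrogenic potential the unadjusted edgeR p was under 0.05 for 9, 3 and 1 members (21.4%, 7.14% and 2.38%). The shares of all genes were 7.84%, 9.65% and 5.12%.

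**Figure D5:**
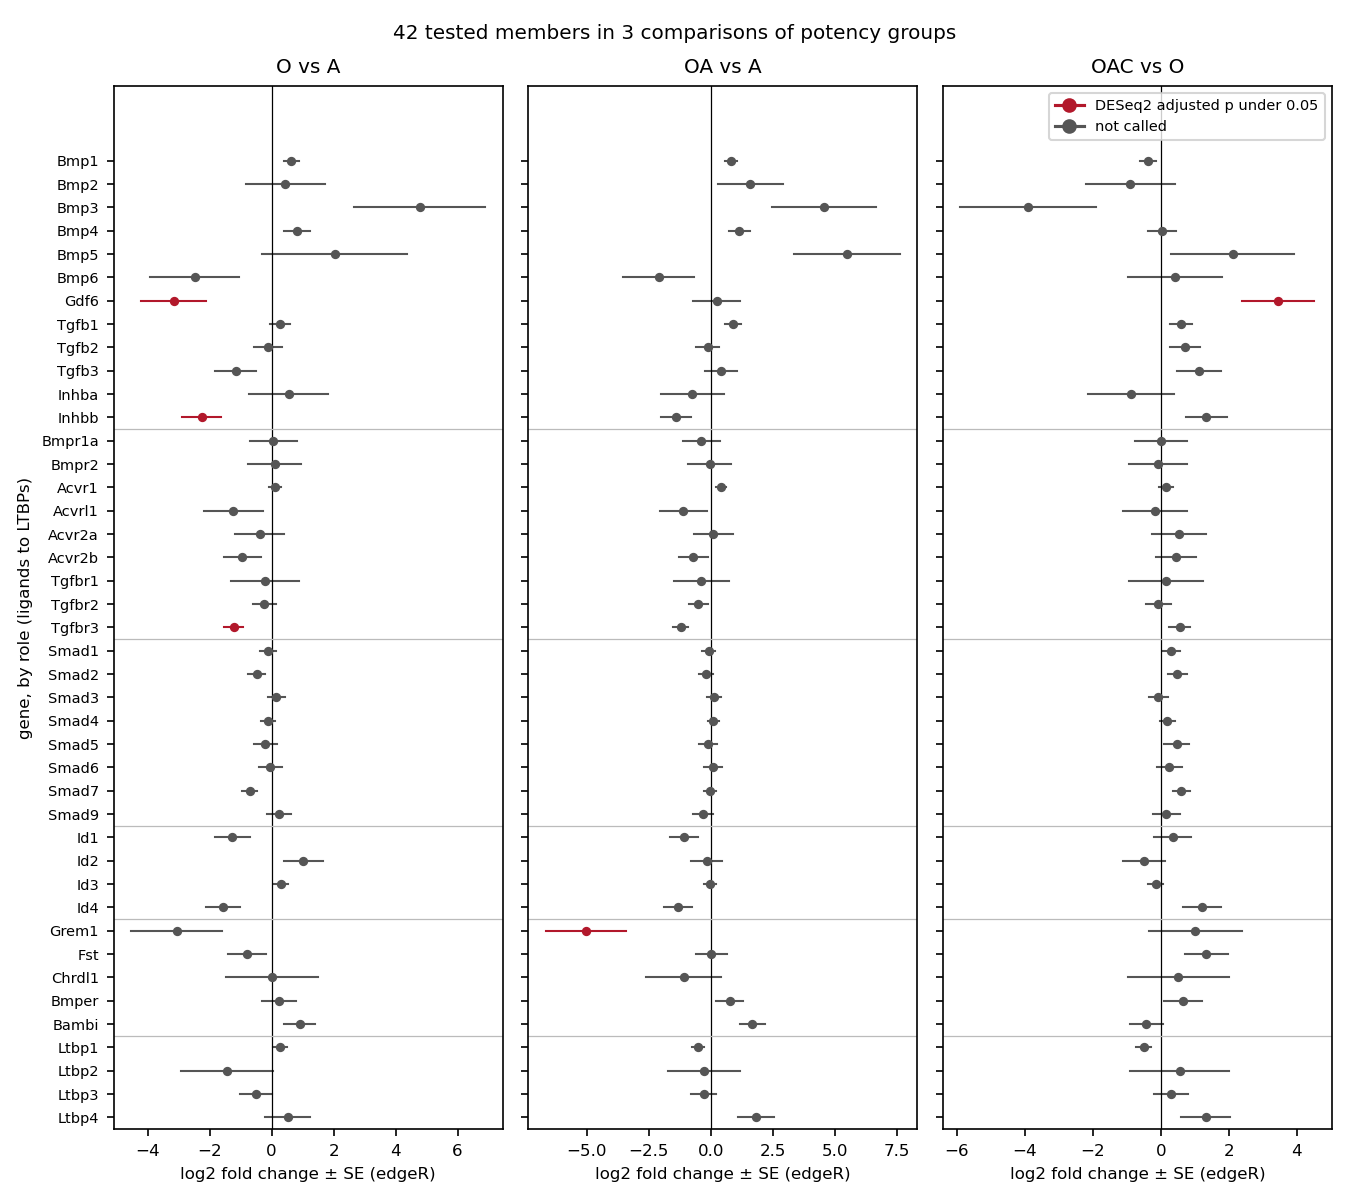
Points are edgeR log2 fold changes and lines their SE for the 42 tested members in O vs A, OA vs A and OAC vs O, and red marks a DESeq2 adjusted p under 0.05. The x axes differ in range between panels. Red points are Gdf6 at -3.16, Inhbb at -2.26 and Tgfbr3 at -1.22 (O vs A), Grem1 at -5.04 (OA vs A) and Gdf6 at 3.46 (OAC vs O).

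By role, the median log2 fold change of the 12 tested ligands was 0.36 in O vs A, 0.61 in OA vs A and 0.51 in OAC vs O. For the 9 receptors it was -0.24, -0.38 and 0.15, and for the 8 SMADs it was -0.12, -0.06 and 0.28. The 4 ID genes had -0.49, -0.62 and 0.10 and the 5 antagonists 0.01, 0.01 and 0.65. These medians describe few genes each and carry no test.

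The wider pathway was read from a list of 76 further genes (other ligands, receptors, antagonists, latency and target genes), of which 70 are in the table and 52 were tested. edgeR called none of them. In the test over 4 groups DESeq2 called 4 of the 52, Dlx3, Dlx5, Eng and Crim1, against 2.09% of all genes, and it called the same 4 for osteogenic potential, against 1.27%. Eng did not follow osteogenic potential library by library. It was at 88.6, 193 and 103 CPM in OA and 6.80, 171 and 72.7 in OAC. The O libraries were at 2.99, 1.99 and 27.2 CPM and OC3 at 14.5, all below AC3 at 51.1. The A libraries were at 2.39, 1.82 and 2.25 CPM. Calls of these 4 genes with libraries left out are not given. In O vs A, 12 of the 52 had an unadjusted edgeR p under 0.05, 6 in each direction, where 9.89% of all tested genes did. DESeq2 called Dlx3 and Dlx5 there, homeobox genes induced by BMPs in osteoblasts, both higher in O. That is 3.85% of the 52, close to the 3.02% of all tested genes that it called. Dlx5 was at 12.7, 44.9 and 15.8 CPM in O, 27.6, 22.4 and 29.7 in OA, 12.8, 54.7 and 27.0 in OAC, and 5.02, 1.66 and 5.57 in A. The A libraries were below all others of these groups. Dlx3 was scarcer, at 0.0382 to 0.28 CPM in A and 1.15 to 7.95 CPM in O.

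In OA vs A, DESeq2 called 4 of the 52 (7.69%), against 0.936% of all genes. Dlx3, Dlx5 and the TGF-beta co-receptor endoglin (Eng) were higher and Crim1 was lower in OA. In OAC vs A it called Dlx5 and Eng (3.85% of the 52, against 0.41% of all genes), both higher in OAC. Crim1, a membrane protein that binds BMPs, was at 64.4, 36.2 and 61.9 CPM in OA and 179, 108 and 158 in A, without overlap. OA and A were free of overlap, in either direction, for 12 of the 52 (23.1%) and for 11% of all genes. In OA vs O, OAC vs OA and OAC vs O, DESeq2 called none of the 52, against 0.302%, 0% and 0.727% of all genes. The unadjusted edgeR p was under 0.05 for 7 of them in OA vs A, 5 in OA vs O, 5 in OAC vs O, 4 in OAC vs A and 0 in OAC vs OA, where 5.27%, 5.43%, 6.02%, 3.58% and 1.17% of all genes were. Furin, a convertase that cleaves TGF-beta and BMP precursors, was called by DESeq2 for adipogenic potential, at 1.02 on the log2 scale (adjusted p 0.0174). It was the only gene of the 52 called there (1.92%, against 1.45% of all genes). It was at 338, 333 and 218 CPM in OAC, 322, 425 and 186 in OA, 265, 223 and 236 in A and 238 in AC3, against 206, 122 and 143 in O and 137 in OC3. OA3 lay below O1, so the sets overlapped.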

How the data were processed

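Strand-specific libraries of oligo(dT)-enriched mRNA were sequenced, per the labels' protocols. The deposited table holds raw read counts per gene, with exonic lengths and 1 column per library, matched by its name. The submitters' processing notes name CASAVA 1.8.0, bedtools 2.11 and build mm9. Neither the aligner nor the strand setting is given in the sources used here, so reads of overlapping or antisense genes may be mixed.

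CPM are the deposited counts divided by the TMM-adjusted library size, on the usual CPM scale. Genes with at least 1 CPM in 3 libraries or more were tested (13896) with edgeR 4.0.16 in R 4.3.3 (quasi-likelihood F test, robust, 6 group means with 8 residual degrees of freedom, or 3 additive potentials). OC3 and AC3 have their own means in the first fit and enter no comparison of groups. The SE of a log2 fold change was calculated back from the edgeR test, as its absolute value divided by the square root of F. DESeq2 1.42.0 was the second test, with the same means; both were tested on simulated counts. DESeq2 gave no adjusted p for 21 genes. Alternatives were size factors, no filter, a replicate block, a GC offset (GC content of the longest GENCODE transcript), OA2 and O1 left out, and each library of the groups compared left out; the DESeq2 fits under the last 4 were added after the data were seen. Intervals are exact Poisson at 95%, and a count of 0 allows 3 counts.

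The members and lists were chosen with earlier results of these data known. Library values are given for members called by either tool, the 2 of lowest overall p and the most abundant per length in each role. Those of the remaining members named were chosen after their values were seen.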

Additional observations from a re-analysis of the deposited data

How the results depend on the processing

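edgeR called 0 members in each of the 10 comparisons under every edgeR alternative run: DESeq2 size factors, no filter on low counts, the replicate block, the GC offset alone or with the block, OA2 and O1 left out, and each library of the groups compared left out. DESeq2 in place of edgeR called 3 members in O vs A, 1 in OA vs A, 1 in OAC vs O, 2 for osteogenic and 2 for adipogenic potential, and 0 in the other comparisons.

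With the GC offset DESeq2 called 3 in the test over 4 groups, 4 in OA vs A, 1 for osteogenic (Tgfbr3, in place of Tgfb1 and Grem1) and 0 for adipogenic potential, where it called 373, 129, 156 and 182 of all tested genes. With OA2 and O1 left out it called 5 over 4 groups, 6 in O vs A, 2 in OA vs A and 1 for adipogenic potential, where it called 383, 489, 220 and 154 of all tested genes. The 6 in O vs A were Gdf6, Inhbb, Tgfbr3, Bmp3, Bmp4 and Smad7. With 1 library left out at a time, DESeq2 called 0 to 4 members over 4 groups (4 without O1), 0 to 5 in O vs A (5 without O3, 0 without O2 or A1), 0 to 3 in OA vs A, 0 to 2 in OA vs O, 0 to 1 in OAC vs O, 0 to 1 in OAC vs A, 0 to 3 for osteogenic and 0 to 3 for adipogenic potential, and 0 in OAC vs OA and for chondrogenic potential. Over all tested genes it called 183 (without O1) to 477 over 4 groups. In O vs A it called 241 to 580, with 580 without O3, 274 without O2 and 264 without A1. The ranges were 74 to 183 in OA vs A, 9 to 304 in OA vs O, 28 to 185 in OAC vs O and 14 to 106 in OAC vs A. They were 88 to 310 for osteogenic, 59 to 661 for adipogenic and 0 to 27 for chondrogenic potential, and 0 to 13 in OAC vs OA. Where 1 library of an arm was left out, the fit pooled the spread over all groups. The cause was not tested.

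The replicate numbers were not taken to pair the samples: the labels do not say that a number marks a shared mouse in each group, and 11 of 18 same-numbered pairs correlated over 0.1, with r from -0.585 to 0.759, while 7 of 12 libraries correlated best with their own number. All pairs among the pools OAC3, OA3, O3 and A3 correlated over 0.1 (0.295 to 0.759). The pools OC3 and AC3 were not part of these correlations. With the replicate block edgeR called 0 members in each comparison, and DESeq2 called 2 over 4 groups (Grem1 and Tgfbr3), 2 in OA vs A (Grem1 and Tgfbr3, adjusted p of the second 0.0479) and 3 for osteogenic potential (Tgfb1, Grem1 and Tgfbr3, the last at 0.00813), where it called 353, 180 and 216 of all tested genes.

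None of the 9 differences that DESeq2 called changed direction under any alternative. The depth of 16888190 to 26076539 reads leaves members under about 1 CPM, such as Bmp5, Bmp7, Gdf5 and Bmpr1b, with few reads.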
